A study of Mus musculus with 10 samples.

Results

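The genes described here are 10 inflammasome genes of the mouse: the sensors Nlrp3, Nlrc4, Naip2, Naip5, Naip6 and Mefv, the adaptor Pycard, the caspases Casp1 and Casp4, and the pore-forming gasdermin Gsdmd. They were listed by name, without regard to level, and followed in 10 RNA-seq libraries, with lung metastases set against normal lung. All 10 were among the 24538 genes of the count files. All 10 were also among the 11571 genes that were tested, the genes whose mean FPKM reached 1 in metastases or in normal lung (FPKM scales fragment counts by transcript length and by the library total). Mefv was tested only because of its level in the metastases, so a difference was built into its entry, whereas the other members reached that mean in both groups.

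All animals were wild type C57BL6/J mice, 8 to 10 weeks old by their records, of which the injected mice are stated to be female. Metastasis-associated macrophages (MAMs) came from lung nodules that formed after E0771-LG cells, a mouse mammary tumor line, had been injected into the tail vein at 6 to 8 weeks of age; nodules were cut out under a microscope and pooled from 2 to 4 mice for a sample. Resident alveolar macrophages (RAMs) came from normal lungs. Both populations were sorted as CD45+, F4/80+, LY6C-, MRC1+ cells with high forward scatter, MAMs as CD11B+ and CD11C- and RAMs as CD11C+ and CD11B-. The inhibitors of transcription alpha-amanitin and actinomycin D were present during tissue digestion in both groups. There were 5 MAM and 5 RAM libraries, and tissue state and macrophage population cannot be told apart in this contrast. Each model rests on 1 tumor line and 1 mouse strain, and p-values cover only the spread between these samples.

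Inflammasomes are cytosolic complexes that assemble when a sensor detects infection or damage. NLRP3 responds to many kinds of cellular stress, NAIP proteins bind bacterial flagellin or secretion-system proteins and engage NLRC4, and pyrin, the product of Mefv, responds to inactivated RHOA. Through the adaptor ASC, encoded by Pycard, sensors recruit caspase-1, which matures interleukin-1 beta and interleukin-18 and cleaves gasdermin D to release its pore-forming part. The mouse caspase encoded by Casp4, long called caspase-11, senses lipopolysaccharide directly and also cleaves gasdermin D. Alveolar macrophages are the resident phagocytes of the airspace, where inhaled bacteria are first met. RNA levels do not report assembly or cleavage of any of these proteins.

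Each library held between 50746305 and 87523247 reads counted on genes, and 54.6% to 64.1% of all entries counted fell on no single gene. The sorted populations carried the genes of their gates. Itgam, which encodes CD11B, ranged over 5848 to 6844 CPM (gene counts scaled to a common library total, with TMM normalization) among MAM libraries and 59.5 to 72.2 among RAM libraries, and Itgax, which encodes CD11C, over 145 to 240.0 and 879.8 to 1110.4. Of 12 alveolar macrophage markers 11 were lower in MAMs, with summed levels of 866 to 1251 CPM against 13682 to 16201, and of 12 markers of monocyte-derived macrophages 11 were higher, the exception being Mertk, which was lower. Neutrophils also express many inflammasome genes. Of 12 neutrophil markers 6 could be tested, of which 4 were higher and 1 lower in MAMs, and the sum of all 12 was 146 to 323 CPM in the MAM and 140 to 203 in the RAM libraries, mostly from Csf3r, Mmp8 and Cxcr2. Of 8 monocyte markers 6 were higher and 1, Chil3, which is also abundant in alveolar macrophages, was lower, so that their sum, mostly Chil3, Nr4a1 and Vcan, was 673 to 844 CPM in MAMs against 7689 to 10221. Dendritic cell markers summed to 7.36 to 22.6 CPM against 17.2 to 26.1, with 2 of 3 tested genes higher and 1 lower, and lymphocyte markers to 13.8 to 26.4 against 5.05 to 19.9, with 1 of 4 tested genes higher. The 4 neutrophil markers called higher were S100a8, S100a9, Csf3r and Mmp9. Of those too low to be tested, Elane was at 0 in all 10 libraries. Ly6g, Retnlg and Mpo were at 0 in most or all RAM libraries and below 2 CPM in every MAM library. The low levels of these genes do not show that neutrophil RNA was absent. Stromal markers summed to 46.9 to 101 CPM in the MAM and 7.88 to 15.9 in the RAM libraries. Epithelial and tumor markers summed to 29.0 to 41.4 and 222 to 253. The RAM sum came mostly from Cdh1 and Epcam, with means of 131 and 76.8 CPM. Of 8 tested genes of this list 5 were lower in MAMs and 1, Hopx, was higher, at a mean of 21.0 CPM against 1.10. Whether the reads of these marker lists came from other cells, and the part of such cells in the results, were not tested. In bulk samples, fewer cells of a type and less RNA per cell cannot be told apart.

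Among the 10 members, 5 were higher in MAMs (Mefv, Pycard, Casp1, Casp4 and Gsdmd), 3 were lower (Nlrc4, Naip5 and Naip6), and Nlrp3 and Naip2 did not pass the test. Calls came from the quasi-likelihood test of edgeR, with p-values adjusted by Benjamini-Hochberg over every gene tested and a threshold of 0.05. By the same rule 28.9% of all genes were higher and 27.3% were lower in MAMs, 3344 and 3160 genes. With upper-quartile scaling, which moved the median log2 fold change of all genes from -0.02 to -0.18, the split was 2745 higher and 4072 lower. The members' calls are thus to be read against a contrast in which more genes changed than did not. With a fold change over 2 in addition, Mefv, Pycard and Casp4 were higher and Nlrc4 was lower, against 15.3% and 15.1% of all genes. In 4 members every MAM library lay above every RAM library and in 3 every MAM library lay below, where the shares of all genes were 23.7% and 21.2%. The median log2 fold change was 0.40 over the members and -0.02 over all genes tested. The counts of higher members and this median include Mefv, which was tested only through its level in MAMs. Of the 9 members that reached the mean in both groups, 4 were higher, 3 lower and 2 did not pass. With a fold change over 2 in addition, 2 of the 9 were higher and 1 was lower. The share among all genes that reached the mean in both groups was not computed. The members called higher were the adaptor, both caspases, the gasdermin and pyrin, whereas those called lower were NLRC4 and a pair of its NAIP receptors.

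**Figure D1:**
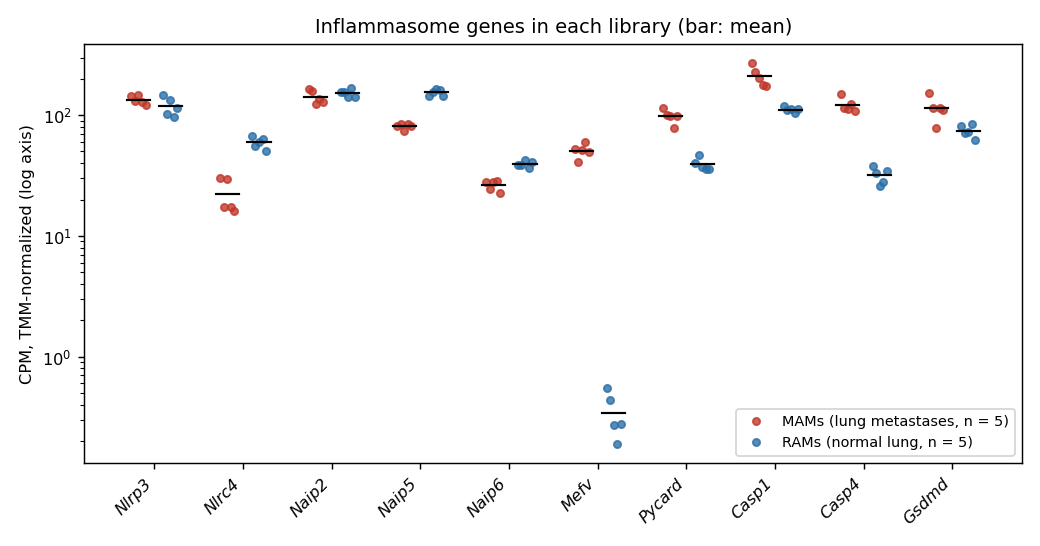
Level of each inflammasome gene in every library, as TMM-normalized CPM on a log axis, with MAMs in red, RAMs in blue and a bar at each mean (n = 5 each). MAMs and RAMs do not overlap for Nlrc4, Naip5, Naip6, Mefv, Pycard, Casp1 and Casp4, and Mefv lies below 1 CPM in all RAM libraries.

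The NAIP receptors are encoded by neighboring copies on chromosome 13, and how far their reads can be told apart bears on each of their levels. Coding sequences of Naip5 and Naip6 were identical at 97.0% of 4209 aligned bases, whereas Naip2 matched Naip5 at 89.8% and Naip1, a further copy that is no member, matched it at 91.9%. A window of 100 bases within 1 coding exon shows a place where a single read of that length could not separate Naip5 from Naip6 but could separate both from Naip2 and Naip1, the copies it was compared with. Sequences are given on the sense strand, 5′ to 3′, from GENCODE M21 transcripts on GRCm38, and capitals mark bases that differ from Naip5. The windows lie on the minus strand at chr13:100222290-100222389 (Naip5, exon 9), chr13:100299577-100299676 (Naip6, exon 10), chr13:100160961-100161060 (Naip2, exon 11) and chr13:100426222-100426321 (Naip1, exon 10).
Naip5: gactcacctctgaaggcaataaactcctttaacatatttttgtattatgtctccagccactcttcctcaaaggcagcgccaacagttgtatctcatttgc
Naip6: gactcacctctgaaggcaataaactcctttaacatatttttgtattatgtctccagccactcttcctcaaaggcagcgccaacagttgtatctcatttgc
Naip2: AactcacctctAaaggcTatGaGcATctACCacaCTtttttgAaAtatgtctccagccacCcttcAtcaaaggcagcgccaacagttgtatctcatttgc
Naip1: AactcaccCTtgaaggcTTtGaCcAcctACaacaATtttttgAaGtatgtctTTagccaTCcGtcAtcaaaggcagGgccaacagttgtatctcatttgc
Naip6 differed from Naip5 at 0 of these bases, Naip2 at 16 and Naip1 at 21.

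Near the start of the coding sequence the same pair was easiest to separate. The window with most differences between them, 11 in 100 bases, lies on the minus strand at chr13:100246074-100246173 in Naip5 (exon 1) and chr13:100316426-100316525 in Naip6 (exon 2), with capitals again marking differences from Naip5.
Naip5: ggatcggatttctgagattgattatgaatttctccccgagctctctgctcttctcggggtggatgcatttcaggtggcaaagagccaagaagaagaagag
Naip6: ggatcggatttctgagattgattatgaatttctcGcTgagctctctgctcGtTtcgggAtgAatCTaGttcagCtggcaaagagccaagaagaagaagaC
Over whole transcripts, 16.2% of the 100-base windows of Naip5 occurred unchanged in a transcript of another gene, most of them in Naip3, as did 6.26% of those of Naip6 and 4.55% of those of Naip2. For Nlrp3, Nlrc4, Mefv, Casp1, Casp4 and Gsdmd the share was 0%. Reads that did not align uniquely were not counted on genes by the authors. Their line held 14.7% to 15.8% of all entries counted in MAMs and 12.9% to 13.2% in RAMs. Whether a read with several alignments entered that line once is not given, so these need not be shares of reads. Since such reads were left out, levels of the single Naip genes are uncertain, but these shares do not measure by how much. Reads that did not align uniquely are given for whole libraries, and the windows treat single reads, whereas sequencing was paired-end.

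Naip5, whose product binds flagellin, lies on chromosome 13 (GRCm38 chr13:100211739-100246323, minus strand). It was measured at 81.9, 85.1, 74.6, 84.6 and 81.4 CPM in MAM replicates 1 to 5 and at 144, 156, 166, 161 and 144 CPM in RAM replicates 1 to 5. The groups did not overlap, and both were narrow. Naip5 was 1.89-fold lower in MAMs, with a log2 fold change of -0.92 ± 0.08 (SE) and an adjusted p of 7.74e-08 (edgeR).

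Naip6, the other flagellin receptor (chr13:100281121-100317674, minus strand), lay at 27.9, 24.3, 27.9, 28.5 and 22.5 CPM in MAMs and at 38.5, 38.4, 42.4, 36.3 and 41.1 CPM in RAMs. Again every MAM library was below every RAM library. The difference was smaller than for Naip5, 1.50-fold, with a log2 fold change of -0.58 ± 0.12 and an adjusted p of 0.000608 (edgeR). Whether Naip5 and Naip6 differ in their fold change was not tested.

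Naip2, whose product binds the inner rod of bacterial type III secretion systems (chr13:100144063-100202092, minus strand), did not pass the test. Its levels were 166, 157, 124, 136 and 128 CPM in MAMs and 156, 156, 142, 167 and 142 CPM in RAMs, and the groups overlapped. The log2 fold change was -0.10, with a 95% interval from -0.30 to 0.10 and an adjusted p of 0.378 (edgeR). It passed only under upper-quartile scaling, at -0.27. The annotated gene Gm18413 overlaps Naip2, and since the strand setting of the counting is not given in the sources used here, reads of overlapping genes cannot be told apart.

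When the counts of Naip2, Naip5 and Naip6 were added, the sum was lower in MAMs. Each of the 3 had a negative log2 fold change, so the direction of the sum was fixed in advance. Reads that did not align uniquely had not been counted, so the sum does not recover reads shared between copies. It lay within 226 to 275 CPM in the MAM and 327 to 364 CPM in the RAM libraries, 1.38-fold lower, with a log2 fold change of -0.47 ± 0.07 and an adjusted p of 5.46e-05 (edgeR). Naip1, whose product binds the needle of the same secretion systems, is not a member. Its levels were 56.3, 41.9, 25.9, 18.7 and 24.4 CPM in MAMs against 1.46, 0.826, 1.37, 2.55 and 7.74 in RAMs, and the groups did not overlap. The log2 fold change of Naip1 was 3.59 ± 0.55 with an adjusted p of 4.55e-05 (edgeR), and 4.43 without RAM replicate 5, the highest of its group. Naip1 was tested only through its level in MAMs, with a mean of 0.422 FPKM in RAMs, so that a difference was built into its entry. With Naip1 included, an alternative chosen after the data were seen, the sum of the Naip genes was still lower in MAMs, at a log2 fold change of -0.30.

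The balance among these copies differed within each library, which needs no scaling between libraries. These ratios were picked after their values had been seen and are given without a test. Naip5 had 0.494 to 0.634 counts for each count of Naip2 in MAMs and 0.921 to 1.16 in RAMs. Naip6 had 0.155 to 0.225 counts for each count of Naip2 in MAMs and 0.218 to 0.298 in RAMs, where the ranges met. Naip1 had 0.138 to 0.340 in MAMs and 0.00531 to 0.0545 in RAMs. FPKM gave the same directions, and there the ratio of Naip6 to Naip2 was at most 0.498 in MAMs and at least 0.537 in RAMs. The level of Naip6 relative to its copies was higher in FPKM than in counts, and the cause was not tested.

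Nlrc4 encodes the protein that polymerizes once a NAIP receptor has bound its ligand (chr17:74425438-74459142, minus strand). It was measured at 30.0, 17.5, 29.9, 17.5 and 16.0 CPM in MAMs and at 67.1, 55.6, 60.3, 63.4 and 50.9 CPM in RAMs. MAM replicates 1 and 3 were higher than the other MAM libraries, yet all 5 lay below the lowest RAM library. Nlrc4 was 2.68-fold lower in MAMs, the only member that was lower with a fold change over 2, with a log2 fold change of -1.42 ± 0.19 and an adjusted p of 1.16e-05 (edgeR). The annotated gene model CT033749.1 overlaps Nlrc4.

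Nlrp3, the sensor of ion flux and organelle stress (chr11:59541568-59566956, plus strand), did not pass the test. Levels were 144, 131, 146, 128 and 120.5 CPM in MAMs and 147, 102, 133, 96.0 and 114 CPM in RAMs. The single highest library was a RAM library, and the groups overlapped. The log2 fold change was 0.18, with a 95% interval from -0.06 to 0.42 and an adjusted p of 0.196 (edgeR). Within libraries, Nlrc4 had 0.133 to 0.208 counts for each count of Nlrp3 in MAMs and 0.447 to 0.661 in RAMs, a ratio chosen after its values were seen.

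Mefv encodes pyrin (chr16:3707218-3718097, minus strand) and was the member with the largest difference. Its levels were 52.1, 40.7, 51.7, 60.5 and 49.5 CPM in MAMs and 0.548, 0.435, 0.269, 0.188 and 0.277 CPM in RAMs, or 2173 to 3443 counts per MAM library and 9 to 32 per RAM library. Mefv was thus detected in all 10 libraries and was low in all RAMs. It was 144-fold higher in MAMs, with a log2 fold change of 7.17 ± 0.27 and an adjusted p of 6.37e-12 (edgeR). On the log2(FPKM + 1) scale, which shrinks changes of low values, the difference was 3.72. Some markers of other myeloid cells were also higher in MAMs, but not all. Of 6 tested neutrophil markers 4 were higher and 1, Cxcr2, was lower. Of 8 monocyte markers 6 were higher and 1, Chil3, was lower. The genes given next are from those called higher. The neutrophil marker Mmp9 ranged over 11.5 to 31.1 CPM among MAM and 0.0207 to 0.582 among RAM libraries, S100a9 over 0.935 to 10.1 and 0.0150 to 1.06, and the monocyte markers Plac8 over 81.3 to 124 and 0.721 to 1.17 and F13a1 over 106 to 215 and 1.07 to 3.01. Their part in the level of Mefv was not tested.

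**Figure D2:**
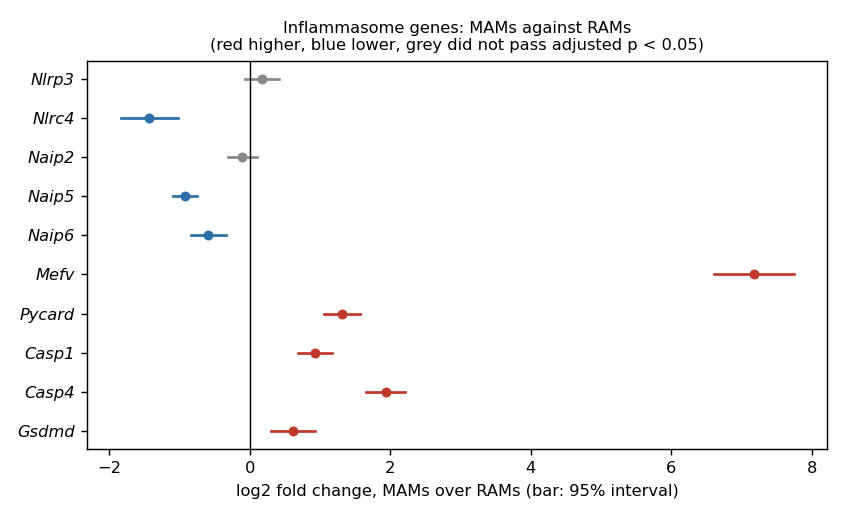
Log2 fold change of each inflammasome gene in MAMs over RAMs (points) with its 95% interval (bars), from 5 libraries in each group. Intervals of Nlrp3 and Naip2 span 0, those of Nlrc4, Naip5 and Naip6 lie below it and those of the other genes above it, with Mefv at 7.17.

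Pycard, which encodes the adaptor ASC that links NLRP3 and pyrin to caspase-1 (chr7:127989708-127993867, minus strand), was higher in MAMs. It lay at 116, 100.1, 97.9, 77.7 and 97.9 CPM in MAMs and at 40.5, 46.5, 37.4, 35.8 and 35.9 CPM in RAMs, without overlap. The difference was 2.49-fold, with a log2 fold change of 1.32 ± 0.12 and an adjusted p of 1.61e-07 (edgeR). The gene model Gm45205 overlaps Pycard and shares 10.4% of its transcript windows, so some of these reads could belong to either.

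Casp1, the effector of the canonical inflammasome (chr9:5298517-5307265, plus strand), was measured at 270.1, 229, 205, 178 and 174 CPM in MAMs and at 118, 109, 112, 104 and 112 CPM in RAMs. The RAM libraries lay close together and the MAM libraries were spread, but they did not overlap. Casp1 was 1.90-fold higher in MAMs, with a log2 fold change of 0.93 ± 0.11 and an adjusted p of 3.92e-06 (edgeR).

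Casp4, the effector of the noncanonical inflammasome, is a neighbor of Casp1 on chromosome 9 (chr9:5308828-5336783, plus strand). Its levels were 149, 114, 113, 124 and 109 CPM in MAMs and 38.0, 33.0, 25.7, 27.7 and 34.7 CPM in RAMs. Every MAM library was far above every RAM library. Casp4 was 3.83-fold higher, with a log2 fold change of 1.94 ± 0.13 and an adjusted p of 4.97e-09 (edgeR). For each count of Casp1 there were 0.499 to 0.699 counts of Casp4 in MAMs and 0.229 to 0.322 in RAMs, again a ratio chosen after its values were seen.

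Gsdmd, the substrate through which both caspases open the membrane (chr15:75862327-75867408, plus strand), lay at 153, 115, 77.8, 115 and 111 CPM in MAMs and at 81.4, 70.6, 73.0, 84.0 and 62.4 CPM in RAMs. MAM replicate 3 fell within the range of the RAM libraries, the only overlap among the members called higher. Gsdmd was 1.54-fold higher in MAMs, with a log2 fold change of 0.62 ± 0.15 and an adjusted p of 0.00200 (edgeR).

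**Figure D3:**
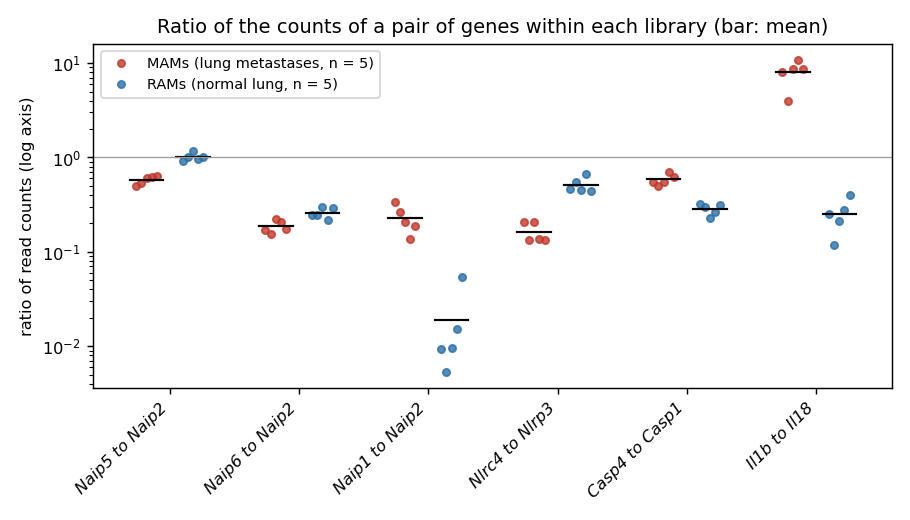
Ratio of the counts of a pair of genes within each library, on a log axis, in MAMs (red) and RAMs (blue), with a bar at each mean (n = 5 each). Of the 6 pairs shown, Naip6 to Naip2 is the only one in which MAM and RAM libraries meet, with MAMs up to 0.225 and RAMs from 0.218.

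Levels of different genes can be set side by side only per length, for which FPKM was used. In MAMs Casp1 was the most abundant member at 116 ± 21.2 FPKM (SD, n = 5), followed by Casp4 at 69.4 ± 9.36, Gsdmd at 63.0 ± 13.9 and Pycard at 45.1 ± 6.57. The libraries of Casp4 overlapped those of Gsdmd, and those of Gsdmd overlapped those of Pycard. Nlrp3 at 27.8 ± 3.02 and Naip2 at 25.8 ± 3.27 did not differ beyond their spread, and the same held for Mefv at 14.0 ± 2.10 with Naip5 at 13.2 ± 0.732 and for Naip5 with Naip6 at 11.7 ± 1.09. Nlrc4 was the lowest member in MAMs, at 4.94 ± 1.51 FPKM and without overlap with Naip6. This order depends on the measure. Counts were also scaled to the library total and divided by the length of the longest protein-coding GENCODE transcript of each gene (RPKM). This measure was added after the data were seen. It differed from FPKM most for Naip6 and Pycard, whereas for the other members FPKM was 1.02 to 1.32 times that value in MAMs. The transcripts used for Naip6 and Pycard held 6827 and 3800 bases, of which 4209 and 579 were coding, so these values depend on the transcript chosen. By counts per length Naip6 was the lowest member in MAMs at 3.07 ± 0.340, overlapping Nlrc4 at 3.74 ± 1.16, and Pycard fell to 20.5 ± 2.35, below Nlrp3 at 26.6 ± 2.02 and overlapping Naip2 at 23.5 ± 2.62. Casp1, Casp4 and Gsdmd held the first ranks by both measures. The cause of the gap was not tested.

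In RAMs Casp1 also ranked first, at 59.3 ± 3.84 FPKM, and Gsdmd second at 41.9 ± 5.24, neither overlapping its neighbor below. Next came Naip2 at 28.0 ± 1.49, Naip5 at 25.2 ± 1.50, Nlrp3 at 23.0 ± 4.67, Casp4 at 18.5 ± 2.60, Naip6 at 17.3 ± 0.771, Pycard at 16.5 ± 1.92 and Nlrc4 at 13.6 ± 1.35, each overlapping the next in this order. Mefv was last, at 0.129 ± 0.0298 FPKM. By counts per length the places of Naip6 and Nlrc4 were exchanged, with Nlrc4 at 11.6 ± 1.35, Pycard at 9.56 ± 1.14 and Naip6 at 5.33 ± 0.326, the ratio of FPKM to counts per length being 1.17, 1.72 and 3.24 for these genes in RAMs. Casp4 ranked above Naip2 and Naip5 in MAMs and below them in RAMs by both measures.

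**Figure D4:**
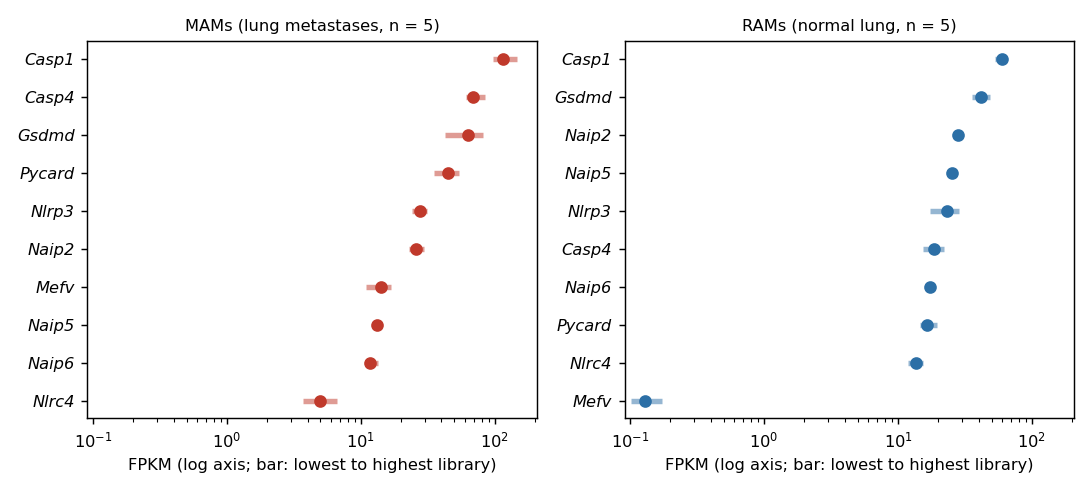
Mean FPKM of each inflammasome gene, ordered within MAMs (left) and within RAMs (right), on a log axis, with a bar from the lowest to the highest of 5 libraries. Casp1 ranks first in both panels, and the last place by FPKM goes to Nlrc4 at 4.94 in MAMs, where counts per length place Naip6 last, and to Mefv at 0.129 in RAMs.

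For 9 members the RefSeq promoter table (GRCm38.p6) held the 250 bases before a transcription start. Shown here are the promoters of the members whose fold change passed 2, since Mefv, Pycard and Casp4 were higher together and Nlrc4 was lower. Matches to 8 motifs on either strand are in capitals: the interferon-stimulated response element core (GAAA, any 2 bases, GAAA), the ETS-IRF element (GGAA, any 2 bases, GAAA), the interferon gamma-activated site TTCNNNGAA, PU.1 as GAGGAAGT, AP-1 as TGANTCA, NF-kB (GGGA, any base, TTTCC), C/EBP as TTGCNNAA and a short IRF element as AANNGAAA, which the response element core and the ETS-IRF element also hold. Regions are chr16:3718125-3718374 (Mefv, minus strand), chr7:127993868-127994117 (Pycard, minus strand), chr9:5308599-5308848 (Casp4, plus strand, the first of its annotated starts) and chr17:74459109-74459358 (Nlrc4, minus strand).
Mefv: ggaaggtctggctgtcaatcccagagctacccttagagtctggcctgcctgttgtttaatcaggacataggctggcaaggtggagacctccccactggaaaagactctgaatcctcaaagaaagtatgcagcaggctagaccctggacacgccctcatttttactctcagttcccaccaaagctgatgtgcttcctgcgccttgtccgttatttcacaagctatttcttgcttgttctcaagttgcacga
Pycard: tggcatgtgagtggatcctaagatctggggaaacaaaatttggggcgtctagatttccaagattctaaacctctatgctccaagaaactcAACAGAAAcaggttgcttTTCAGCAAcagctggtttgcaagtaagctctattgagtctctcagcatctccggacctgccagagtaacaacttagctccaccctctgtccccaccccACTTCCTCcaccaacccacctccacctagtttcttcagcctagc
Casp4: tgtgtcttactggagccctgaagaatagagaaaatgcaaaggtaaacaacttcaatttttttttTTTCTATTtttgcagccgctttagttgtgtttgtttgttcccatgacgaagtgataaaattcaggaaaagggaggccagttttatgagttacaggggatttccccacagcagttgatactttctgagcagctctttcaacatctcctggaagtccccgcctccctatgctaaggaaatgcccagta
Nlrc4: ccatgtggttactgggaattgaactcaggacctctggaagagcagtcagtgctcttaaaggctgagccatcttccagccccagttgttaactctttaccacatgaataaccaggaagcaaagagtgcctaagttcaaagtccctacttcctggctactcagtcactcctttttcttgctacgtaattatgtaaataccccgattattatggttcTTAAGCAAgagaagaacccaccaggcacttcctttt

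The Pycard window held a PU.1 match beginning 44 bases before the start, a C/EBP match at 142 bases and a short IRF element at 160 bases. Of all 32851 promoters in the table, 2.44% held the PU.1 letters, 9.56% the C/EBP letters and 21.3% the short IRF element. Casp4 held a short IRF element 186 bases before its start, and the second of its starts, which lies close by, had a further one at 9 bases. Nlrp3, which was not called, and Naip6, which was lower, held the short IRF element too. Nlrc4 held a C/EBP match at 36 bases. Some windows lie before a RefSeq start but reach into the GENCODE span of the gene given above. The Naip6 window, chr13:100316617-100316866, and an Nlrp3 window, chr11:59542436-59542685, lie wholly within it. The Casp4 and Nlrc4 windows overlap it in part. The Casp4 match at 9 bases lies within it, and the Nlrc4 match partly so. In the Mefv window no match to any of the 8 motifs was found. Response element cores, ETS-IRF, interferon gamma-activated, AP-1 and NF-kB letters, which 2.98%, 2.30%, 7.02%, 6.75% and 0.356% of all promoters held, were in none of the members' windows. A match is a description of letters only, and the lack of one says nothing about the factor.

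Other genes of the pathway were taken from a list, of which 34 are reported and 30 could be tested. In MAMs 22 were higher and 3 lower (Txnip, Il18 and Serpinb1a), and 5 did not pass, where 28.9% and 27.3% of all genes tested were higher and lower. The median log2 fold change of these genes was 1.05. With a fold change over 2 in addition, 15 were higher and 2 lower, against 15.3% and 15.1% of all genes. Of these genes Naip1, Pstpip1, Irgb10 and Il1r2 entered the test only through their level in MAMs. Of the other 26, 18 were higher, 3 lower and 5 did not pass. The share among all genes that reached the mean in both groups was not computed. Not tested, for want of a mean FPKM of 1, were the sensors Nlrp6, Nlrp10 and Nlrp12 and the caspase Casp12, which reached at most 5.51 CPM in any library.

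**Figure D5:**
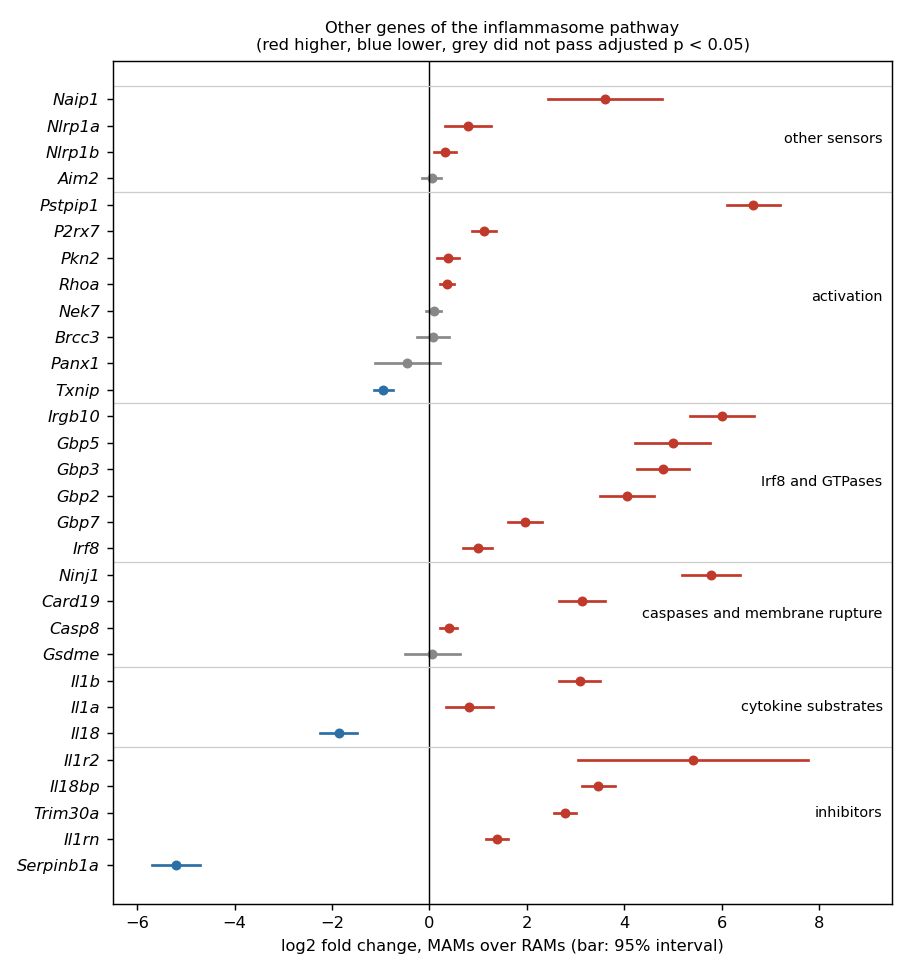
Log2 fold change in MAMs over RAMs (points) with 95% intervals (bars) for the 30 other inflammasome pathway genes that could be tested, grouped by role, from 5 libraries in each group. Points for Irf8 and all 5 interferon-inducible GTPases lie above 0, whereas Txnip, Il18 and Serpinb1a lie below it.

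Among other sensors, Nlrp1a and Nlrp1b, sensors of the NLRP1 family, were higher, at log2 fold changes of 0.79 ± 0.22 and 0.32 ± 0.11 (adjusted p of 0.00632 and 0.0172, edgeR). Nlrp1b ranged from 68.7 to 90.8 CPM in MAMs and from 54.6 to 70.7 in RAMs, and lost its call without RAM replicate 2, at 0.27 with an adjusted p of 0.0553 (edgeR), and under upper-quartile scaling, at 0.16. Aim2, the sensor of cytosolic DNA, did not pass. It ranged from 100.3 to 120.1 CPM in MAMs and from 93.5 to 124 in RAMs, with a log2 fold change of 0.04 and a 95% interval from -0.15 to 0.24. Nlrp1a and Nlrp1b are similar copies, and their reads may be shared.

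Genes that act before or beside the sensors were mixed. Pstpip1, whose product binds pyrin, lay at 64.5 to 82.5 CPM in the MAM and 0.497 to 1.36 in the RAM libraries, a log2 fold change of 6.64 ± 0.25 with an adjusted p of 7.88e-12 (edgeR), although like Mefv it was tested only through its level in MAMs. Rhoa, the GTPase whose inactivation pyrin detects, was 1.28-fold higher. Pkn2, which encodes a kinase downstream of RHOA, was 1.31-fold higher, a call lost under upper-quartile scaling. P2rx7, the ATP-gated channel upstream of NLRP3, lay within 147 to 193 CPM in the MAM and 57.4 to 87.9 CPM in the RAM libraries and was 2.17-fold higher, with an adjusted p of 8.32e-07 (edgeR). Nek7, the kinase that NLRP3 needs to assemble, did not pass, within 146 to 177 CPM in the MAM and 149 to 159 CPM in the RAM libraries, and neither did the deubiquitinase gene Brcc3 and the channel gene Panx1. Txnip, a binding partner of NLRP3, was 1.93-fold lower in MAMs, at 165 to 209.6 CPM against 300.0 to 401, with an adjusted p of 3.16e-07 (edgeR).

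All 6 genes of the group of Irf8, a transcription factor of myeloid cells that drives Naip genes, and of interferon-inducible GTPases that attack bacterial membranes were higher in MAMs, and none overlapped between groups, where 28.9% of all genes were higher and 23.7% had every MAM library above every RAM library. Irf8 was 1.99-fold higher, within 131 to 228 CPM in the MAM and 71.5 to 92.5 CPM in the RAM libraries, with an adjusted p of 2.08e-05 (edgeR). Gbp2 rose from a mean of 19.4 ± 3.99 CPM in RAMs to 322 ± 129.7 in MAMs (SD, n = 5), a log2 fold change of 4.05 ± 0.26 with an adjusted p of 3.00e-09 (edgeR). Gbp3, Gbp5 and Gbp7 had log2 fold changes of 4.79, 4.99 and 1.96, and Irgb10, which was tested only through its level in MAMs, one of 6.00, from 0.766 to 2.00 CPM in RAMs to 56.2 to 117 in MAMs. Both counts of 6 include Irgb10, for which a difference was built into its entry. The Gbp genes are similar copies in a cluster, so reads may be shared between them and their calls may not be separate.

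Genes of cell death beyond Gsdmd were in part higher. Ninj1, whose product ruptures the plasma membrane of dying cells, lay within 81.1 to 127 CPM in the MAM and 1.08 to 2.86 CPM in the RAM libraries, a log2 fold change of 5.78 ± 0.28 with an adjusted p of 1.14e-10 (edgeR). Card19, which encodes a CARD protein and stands here only through its place in the list, was 8.77-fold higher. Casp8, an initiator caspase of apoptosis, was 1.31-fold higher. The gasdermin gene Gsdme did not pass, with a log2 fold change of 0.06 and a 95% interval from -0.50 to 0.62.

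The cytokine substrates went opposite ways. Il1b lay at 304, 210.3, 289, 269.6 and 242 CPM in MAMs and at 30.7, 17.6, 27.1, 36.9 and 43.4 CPM in RAMs, so that every MAM library was well above every RAM library. It was 8.45-fold higher in MAMs, with a log2 fold change of 3.08 ± 0.20 and an adjusted p of 3.82e-09 (edgeR). Il18 lay at 37.6, 52.6, 33.3, 24.7 and 27.8 CPM in MAMs and at 122, 149, 129, 132 and 109 CPM in RAMs, again without overlap. It was 3.64-fold lower, with a log2 fold change of -1.86 ± 0.18 and an adjusted p of 2.72e-07 (edgeR). Counts of Il1b were 4.00 to 10.9 times those of Il18 in MAMs and 0.118 to 0.398 times in RAMs, a ratio chosen after its values were seen. Il1a was 1.76-fold higher, with 1 MAM library among the RAM values and an adjusted p of 0.00659 (edgeR). Il1b overlaps the antisense model Il1bos, and Il18 the genes Bco2 and Tex12.

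Of 5 genes that restrain the pathway or its cytokines, 4 were higher in MAMs and 1 was lower, where 28.9% and 27.3% of all genes were. The 4 include Il1r2, for which a difference was built into its entry. Il1rn, the interleukin-1 receptor antagonist, was abundant in both groups, within 991 to 1646 CPM in the MAM and 452 to 523 CPM in the RAM libraries, and was 2.62-fold higher. Il18bp, which neutralizes interleukin-18, ranged from 164 to 317 CPM in MAMs and from 18.9 to 22.3 in RAMs, with a log2 fold change of 3.46 ± 0.16. Trim30a, a negative regulator of NLRP3 in mice, was 6.86-fold higher. Il1r2, the decoy receptor for interleukin-1, was tested only through its level in MAMs and was low, within 0.637 to 8.69 CPM in the MAM and 0 to 0.362 CPM in the RAM libraries, and its fitted log2 fold change of 5.41 ± 1.11 rested on 5, 0, 1, 0 and 17 counts in the RAM libraries and was 7.08 without RAM replicate 5. Serpinb1a, a serpin that restrains inflammatory caspases, was 36.8-fold lower in MAMs, at 1.65 to 4.05 CPM against 73.6 to 109, with an adjusted p of 3.78e-11 (edgeR).

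To place each member among all genes tested, the gene with the most similar profile was found, by Euclidean distance between mean-centered log2 CPM over the 10 libraries and leaving out other members. Nearest to Nlrp3 was Polr3a at a distance of 0.32, to Naip2 Washc2 at 0.24, to Naip5 Polr2a at 0.22 and to Naip6 Phf3 at 0.25. Nlrc4 lay nearest to Clmp at 0.64. Pycard was closest to Jak2 at 0.28, Casp1 to Lgals8 at 0.34, Casp4 to the class I gene H2-D1 at 0.47, and Gsdmd to Ndufa7 at 0.43. Mefv had the most distant neighbor of all members, Runx3 at 1.10, with means of 119 CPM in MAMs and 1.22 in RAMs.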

How the data were processed

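RNA-seq libraries were made with the Ovation RNA-Seq System from total RNA of sorted macrophages. Per the labels the submitters used TopHat2 2.0.13, HTSeq 0.6.1, Cufflinks 2.2.1 and DESeq2 1.6.3 with the mm10 build. The authors deposited 1 table of raw counts per library, of uniquely aligned reads per gene, and FPKM values per gene and library that Cufflinks scaled by transcript length and mapped fragments. The strand setting of the counting is not given in the sources used here. Libraries were grouped by their sample records.

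Lines naming no gene, 54.6% to 64.1% of all entries counted, did not enter library sizes or tests. Counts on genes, 50746305 to 87523247 per library, set the precision. A gene was tested if its mean FPKM reached 1 in MAMs or in RAMs and any count was above 0. edgeR 4.0.16 (R 4.3.3) was used with TMM normalization, the quasi-likelihood test and Benjamini-Hochberg adjustment over 11571 genes, without covariates, and a prior count of 2 served for log2 CPM in the search for similar genes. The same test, DESeq2 1.42.0 and limma 3.58.1 were first tested on simulated data. Alternatives were RLE and upper-quartile scaling, DESeq2, 2 filters, limma on log2 FPKM with a pseudocount of 1 or 0.1, a replicate block, a fold change over 2, and leaving out each library. Naip1 in the sum of Naip genes, FPKM ratios and counts per transcript length were chosen after the data were seen. Coding sequences were aligned with MAFFT 7.526.

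The members and lists were chosen with earlier results of these data known. Some genes of the pathway list are not reported here and do not enter its counts. Named were all members, each other testable gene of that list, marker lists as counts and sums, in part with their most abundant genes, and the nearest gene to each member. Single marker genes (Itgam, Itgax, Ly6c1, Ly6c2, Adgre1, Mrc1, Ptprc, Mertk, S100a8, S100a9, Csf3r, Cxcr2, Mmp9, Chil3, Plac8, F13a1, Elane, Ly6g, Retnlg, Mpo, Cdh1, Epcam, Hopx) were named after their values were seen. The RefSeq table used held no promoter entry for Gsdmd.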

Additional observations from a re-analysis of the deposited data

Results flagged for a closer look

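Single libraries were compared with the others of their group for the 10 members and the testable pathway genes, 80 groups of 5 libraries in all. In 3 groups the highest library was separated from the next by more than 0.71 of the group's range. Chance flags about 1 in 20 such groups, and none of the 3 was a member's. RAM replicate 5 was the highest in 2 of them: Naip1 at 7.74 CPM against 2.55 in the next library and Il1r2 at 0.362 CPM against 0.0856. The other was Irgb10 in MAM replicate 1, at 117 CPM against 73.4 in the next MAM library.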

How the results depend on the processing

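Of 180 values for the members (10 genes under 18 alternatives), 179 kept their direction and their side of the threshold. The exception was Naip2, which passed as lower under upper-quartile scaling (-0.27), so that 4 members were lower there. A fold change over 2 in addition left 3 members higher and 1 lower. Counts per length in place of FPKM changed the order of the members, Naip6 and Pycard falling most. Counts of members called were 5 higher and 3 lower without each library in turn, and the summed Naip genes had log2 fold changes from -0.51 to -0.44. Replicate numbers did not pair the samples: correlations of deviations within a number ran from -0.04 to 0.03, and 2 of 5 MAM libraries correlated best with the RAM library of their own number. With the replicate block 5 members were higher and 3 lower, and the summed Naip genes stood at -0.47. For the pathway list 526 of 540 values were unchanged in this sense. Genes that did not pass changed sign: under upper-quartile scaling Aim2 (-0.12), Nek7 (-0.082), Brcc3 (-0.094) and Gsdme (-0.10); with limma on log2(FPKM + 1) and log2(FPKM + 0.1) Aim2 (both -0.10). Without single libraries Aim2 ranged from -0.0088 to 0.097, Brcc3 from -0.029 to 0.16 and Gsdme from -0.044 to 0.28. Upper-quartile scaling moved the median of all genes from -0.02 to -0.18, and the genes that changed sign under it moved by a like amount. The cause of the other sign changes was not tested. Low counts limited Il1r2, with at most 17 in a RAM library.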
